A study of Rattus norvegicus with 19 samples.

Results

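The thymus of rats gavaged with corn oil at 5 ml/kg was compared with that of rats gavaged with saline. The arrays were chosen by title alone, 4 at 5 ml/kg and 5 with saline, and they make up 9 of the 19 arrays of the series. All animals were female Wistar rats, given as 7 weeks of age, that were dosed for 14 days. The saline group received 10 ml/kg and the corn oil group 5 ml/kg, so liquid and dose volume cannot be told apart here. The other 10 arrays came from rats given corn oil at 2 ml/kg (5 arrays) or 10 ml/kg (5 arrays). Each group had 6 animals housed 3 to a cage, but which animals shared a cage was not recorded in the labels. The titles number the replicates of a group, so the arrays are treated as different animals; were they not, the p-values would measure only the spread between these samples. The series asked how corn oil, a vehicle used to dose fat-soluble compounds, affects the thymus when given alone.

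The thymus is where precursors from the bone marrow become T cells. Immature thymocytes rearrange their antigen receptor genes, carry CD4 and CD8 together, and are selected by cortical and medullary epithelial cells before the mature cells leave. The organ is known to shrink under glucocorticoids, and it lies in fat that can come along when it is dissected.

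No gene passed the test between 5 ml/kg corn oil and saline. Of 22667 genes tested, 0% were called at an adjusted p of 0.05 by limma, and the smallest adjusted p was 0.576. At an unadjusted p of 0.05, 1878 genes (8.29%) passed, 633 of them higher at 5 ml/kg (2.79%) and 1245 lower (5.49%). The lean toward lower values turned with the background correction and with slide as a block. Under normexp, which models background in each spot, 535 passed as higher and 164 as lower. With slide as a fixed block, set out below, the counts were 732 and 497, and with scan day as a fixed block 566 and 588. Slide as a random block kept the lean, at 350 and 523. Quantile normalization gave 1169 and 1470. Normexp moved the median of all genes from -0.01 to 0.11, and quantile normalization moved it to 0.01. The 4 oil arrays lay above all 5 saline arrays for 237 genes (1.05%) and below them for 320 genes (1.41%). Measured with the same fit against the same saline arrays, 10 ml/kg gave 1436 genes (6.34%) at an adjusted p of 0.05 by limma. For 2 ml/kg, 209 genes (0.922%) passed an unadjusted p of 0.05. These counts use unlike thresholds and do not rank the doses. Differences from saline at 2 and 10 ml/kg, and between 10 and 5 ml/kg, come from this fit, which has no slide term. Values are log2 intensity relative to the 75th percentile of the array, differences are 5 ml/kg minus saline, and errors after a difference are the SE of the fit with 4 and 5 arrays.

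For most genes the fit without a slide term bounded the size of any difference. That fit treats arrays of a slide as independent, although their estimated correlation was 0.507. The 95% interval lay inside 1 log2 unit (2-fold) either way for 15115 genes (66.7%), and the median SE was 0.20. It was 0.15 for the 16730 genes well above background on all 9 arrays and 0.45 for the rest. As the tissue was measured whole, fewer cells of a type and less RNA per cell cannot be told apart in any value that follows.

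No slide held both groups. At 5 ml/kg, replicates 1, 3 and 4 lay on slide 2 beside 1 array at 2 ml/kg, and replicate 2 lay on slide 5 beside 2 arrays at 10 ml/kg. The saline arrays lay on slide 1 (replicates 3 and 4), slide 3 (replicate 5) and slide 4 (replicates 1 and 2). Slides 1 and 4 also held arrays at 2 ml/kg, and slide 3 held arrays at 10 ml/kg. Over all 19 arrays 57.8% of the variance lay along the first principal component. Slide accounted for 98.1% of the variance of its scores against 39.5% for group. For the second component (9.93% of the variance) slide accounted for 87.1% and group for 58.6%. Over genes, saline arrays on different slides correlated with a median of 0.969 (8 pairs), saline with 5 ml/kg arrays with 0.981 (20 pairs, all on different slides), and arrays of different groups on the same slide with 0.987 (16 pairs). By these medians saline and 5 ml/kg arrays were no less alike than saline arrays of different slides. The 5 ml/kg arrays on different slides were more alike, with a median of 0.988 (3 pairs). Saline slides lay far apart on the first component, so these medians do not separate treatment from slide.

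**Figure D1:**
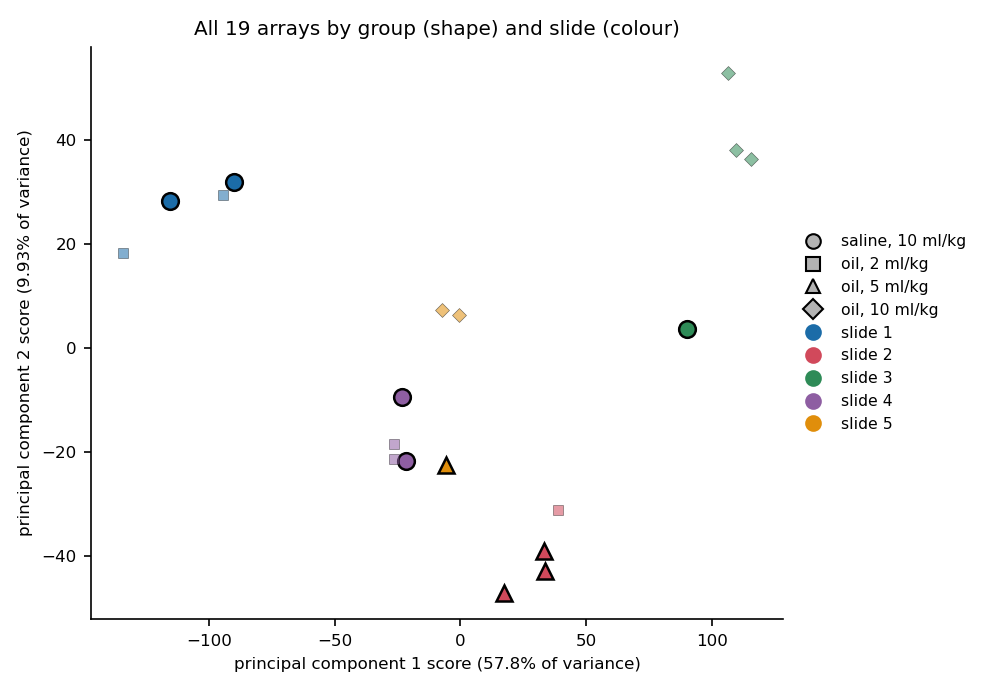
Scores of all 19 arrays on the first 2 principal components, with shape for the group, colour for the slide and large outlined symbols for saline and 5 ml/kg. Arrays of a slide sit together whatever their group, and saline arrays occupy 3 separate places, with slide 3 far to the right and slide 1 far to the left.

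The array at 2 ml/kg on slide 2 allows a comparison across slides within 1 treatment, although slide and animal cannot be told apart in a single array. Its difference from the other 4 arrays at 2 ml/kg exceeded 1 log2 unit for 3873 genes, more than the 1725 genes with a difference that large between 5 ml/kg and saline. Of those 1725 genes, 172 were higher and 1553 lower at 5 ml/kg, and 1419 also differed by over 1 log2 unit the same way between the 2 ml/kg arrays. With slide as a block, 258 of the 1725 kept a difference over 1 log2 unit the same way. Over all genes that fit had 684 higher and 234 lower by over 1 log2 unit. With normexp background the counts were 77 higher and 37 lower. The background itself differed by slide: slide 2, with most of the oil arrays, left negative control spots a net signal between 20.1 and 21.6, whereas slide 1, with saline replicates 3 and 4, left between 44.9 and 59.6. The groups overlapped in this signal. Saline replicate 5 (slide 3) stood at 19.5, and saline replicates 1 and 2 (slide 4) at 31.5 and 30.1. The 5 ml/kg replicate 2 (slide 5) stood at 38.6. The part of background in the differences of dim genes was not tested beyond the change to normexp. Across 22663 genes the 2 differences correlated at 0.658 (Pearson) and 0.433 (Spearman). They share no array, but 3 of the 4 arrays at 5 ml/kg share slide 2 with the 2 ml/kg array, and genes are not independent.

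**Figure D2:**
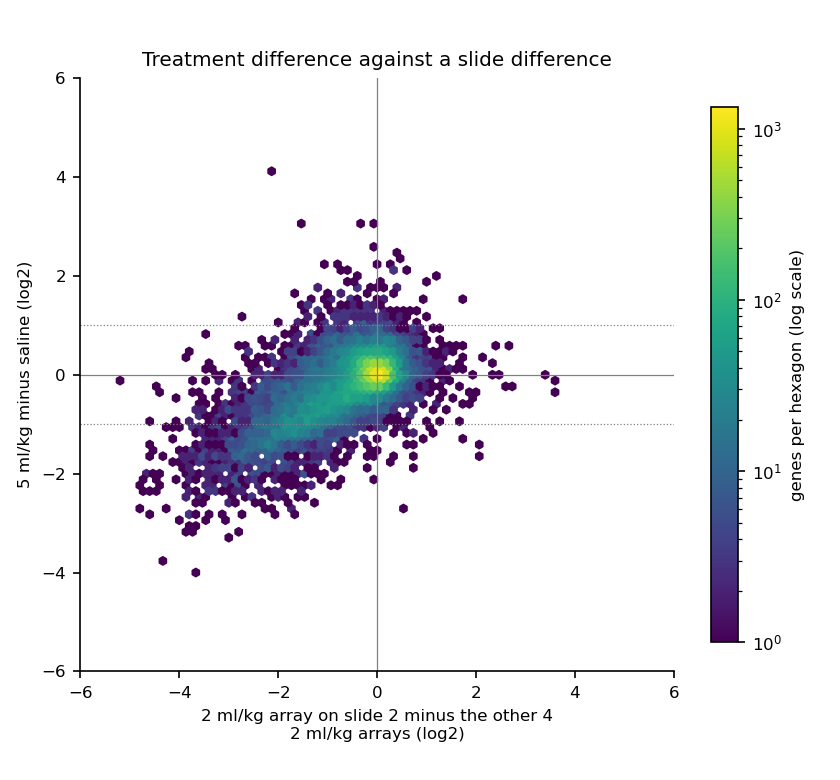
Each hexagon counts genes (colour, log scale) by their log2 difference between 5 ml/kg and saline (vertical) and between the 2 ml/kg array on slide 2 and the other 4 arrays at 2 ml/kg (horizontal), with dotted lines at 1 log2 unit. Genes lower at 5 ml/kg by over 1 unit lie mostly at the lower left, where the 2 ml/kg array on that slide was lower too.

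Results below are therefore set beside routes that hold slide or scan day fixed, in full for some genes and lists and only in part for others. A fit with slide as a block compares the groups through the 2 and 10 ml/kg arrays that share their slides, and it passed 1229 genes (5.42%) at an unadjusted p of 0.05 and none at an adjusted p of 0.05 (smallest 0.192, limma). Chained differences add up within-slide steps through 2 ml/kg or through 10 ml/kg. The chain through 2 ml/kg rests on a single 2 ml/kg array on slide 2. The chain through 10 ml/kg rests on 5 ml/kg replicate 2 alone, on slide 5, and saline replicate 5 alone, on slide 3. Slides 4 and 5 were scanned on the same day, so 5 ml/kg replicate 2 can also be set against saline replicates 1 and 2 within that day. These routes reuse the same few arrays and are not independent of each other or of the slide block. Of the 1878 genes at an unadjusted p of 0.05, 1722 kept their sign with the slide block, but 288 passed that p the same way in both fits.

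Among the genes nearest the threshold, Ddit4 had one of the larger differences. These genes were picked for the smallest p in these same arrays, so a lack of overlap between groups is no further evidence. Ddit4 encodes REDD1, an inhibitor of mTORC1 induced by stress and glucocorticoids. The saline arrays stood at 2.17, 2.76, 1.65, 2.41 and 2.41 for replicates 1 to 5. At 5 ml/kg, replicates 1 to 4 stood at 1.21, 1.45, 0.45 and 1.59. All 4 oil arrays lay below all 5 saline arrays, and the difference was -1.11 ± 0.24 (95% interval -1.61 to -0.60, adjusted p 0.576 by limma). A second probe for the gene gave -1.22. The slide-blocked difference was -1.01, the chains gave -1.28 and -0.59, and the shared scan day gave -1.01. The 2 ml/kg array on slide 2 stood at 1.68, among the other 2 ml/kg arrays (1.28 to 1.69), so that array was not low for this gene. The differences from saline were -0.69 at 2 ml/kg and -0.51 at 10 ml/kg, neither of them past the adjusted threshold.

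Spsb2, which encodes a substrate adaptor of an E3 ubiquitin ligase, stood at -3.62, -3.46, -3.58, -3.51 and -3.50 in the saline arrays. At 5 ml/kg it stood at -4.56, -3.75, -4.90 and -4.25, below every saline array. The 3 arrays on slide 2 were low and replicate 2, on slide 5, was close to the saline arrays. The difference was -0.83 ± 0.16 (adjusted p 0.576 by limma). It was -0.60 in the slide-blocked fit, -0.87 through 2 ml/kg, -0.17 through 10 ml/kg, -0.45 with normexp background and -0.21 within the scan day. Without 5 ml/kg replicate 2 it became -1.03 with an adjusted p of 0.0163 by limma, the only call that any tested alternative gave. In that fit all oil arrays lie on slide 2, and slide and oil cannot be told apart there. The 2 ml/kg array on slide 2 stood at -3.80, just under the -3.77 to -3.51 of the other 2 ml/kg arrays.

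Hip1r, an endocytic adaptor that links clathrin to actin, had the smallest unadjusted p. Saline arrays stood at -4.92, -4.62, -5.02, -4.61 and -4.99. The oil arrays stood at -5.18, -5.44, -5.47 and -5.53, all lower. The difference was -0.57 ± 0.11 (95% interval -0.81 to -0.33), and the routes that hold slide or day fixed gave -0.50 with the slide block, -0.59 and -0.36 through the chains and -0.67 within the scan day. With normexp background it was -0.01. The difference was thus not kept under that background correction. The signal of this gene is dim, and whether that accounts for the change was not tested. Slc26a9, a chloride transporter of epithelia, is also dim. It stood at -4.93, -4.94, -4.77, -5.28 and -5.83 with saline and at -6.02, -6.42, -6.23 and -6.29 with oil, again without overlap. Its difference was -1.09 ± 0.25 (-0.64 with a second probe), the slide-blocked value -1.29, the chains -1.36 and -1.19 and the scan day -1.48, but normexp background gave -0.07.

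Fitm1, which takes part in lipid droplet formation, was at -5.20, -4.98, -4.93, -4.96 and -5.02 with saline and at -5.63, -5.50, -5.48 and -5.81 with 5 ml/kg. The groups did not overlap. The difference was -0.59 ± 0.13 (-0.71 with the slide block, -0.64 and -0.83 through the chains and -0.41 within the day). It is one of the few genes here that also had a called difference at the highest dose, -0.69 at 10 ml/kg (adjusted p 0.00271 by limma). Its sign was not kept under normexp background, which gave 0.06. Tgm1, the transglutaminase of cornified epithelium, differed by -0.55 ± 0.12, Chpf2 by -0.38 ± 0.09, Dhrsx by -0.57 ± 0.13 and Zswim4 by -0.32 ± 0.07, each with no overlap and with all 4 routes below 0. Under normexp these were -0.10, -0.17, -0.43 and -0.13. Sv2a, a synaptic vesicle protein, lay apart too (-0.46 ± 0.10) but was at -0.11 with slide as a block. The 2 ml/kg array on slide 2 was low for it at -3.76, against -3.50 to -3.22 in the other 2 ml/kg arrays. Rhcg, an ammonia transporter, differed by -1.26 ± 0.29 with overlapping groups, and its sign turned under normexp (0.23) and through the 10 ml/kg chain (0.27). Wdr33, a polyadenylation factor, differed by -0.41 ± 0.10 and also overlapped.

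Of the 12 genes nearest the threshold in the higher direction, Sf3a3 had the smallest p. Sf3a3, a subunit of the splicing factor SF3a, stood at 2.71, 2.46, 2.88, 2.63 and 2.61 with saline and at 3.08, 2.95, 3.18 and 3.03 with oil. The oil arrays were all higher, by 0.40 ± 0.08 (95% interval 0.22 to 0.58). Other routes gave 0.31 with the slide block, 0.39 and 0.17 through the chains and 0.36 within the day. A second probe gave 0.31, and normexp background 0.25. Its difference at 10 ml/kg was 0.00, and the difference between the 10 and 5 ml/kg arrays, 10 minus 5, was -0.40 (adjusted p 0.00933 by limma). Eif4ebp2, a repressor of cap-dependent translation, stood at 0.82, 0.75, 0.76, 0.60 and 0.43 with saline and at 1.22, 1.04, 1.53 and 0.96 with oil, without overlap. The difference was 0.51 ± 0.14, with 0.38 in the slide-blocked fit, 0.51 and 0.12 through the chains and 0.25 within the day. Mlana, a melanosome protein, differed by 0.89 ± 0.22 (0.75 with the slide block and 0.42 through 10 ml/kg). Dnajb12, an endoplasmic reticulum co-chaperone, differed by 0.36 ± 0.09, but by 0.21 with the slide block and 0.15 within the day. Surf4, a cargo receptor, differed by 0.31 ± 0.09, with 0.20 in the slide-blocked fit and 0.05 through 2 ml/kg. Ankrd26, Lekr1, Elovl2 (fatty acid elongation) and Clcn3 (an endosomal chloride exchanger) also had no overlap between groups, with differences of 0.79, 1.14, 0.57 and 0.44. With the slide block these were 0.51, 0.91, 0.48 and 0.14. Clcn3 stood at 0.16 and 0.10 through the chains, 0.11 within the day and 0.05 with a second probe. Lekr1 stood at 0.46 through 10 ml/kg, 0.25 within the day and 0.30 with a second probe. Ggct, an enzyme of glutathione breakdown (0.42 ± 0.12), and Star (0.95 ± 0.28), the mitochondrial cholesterol carrier, overlapped between groups, and Star was at -0.17 when chained through 10 ml/kg.

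**Figure D3:**
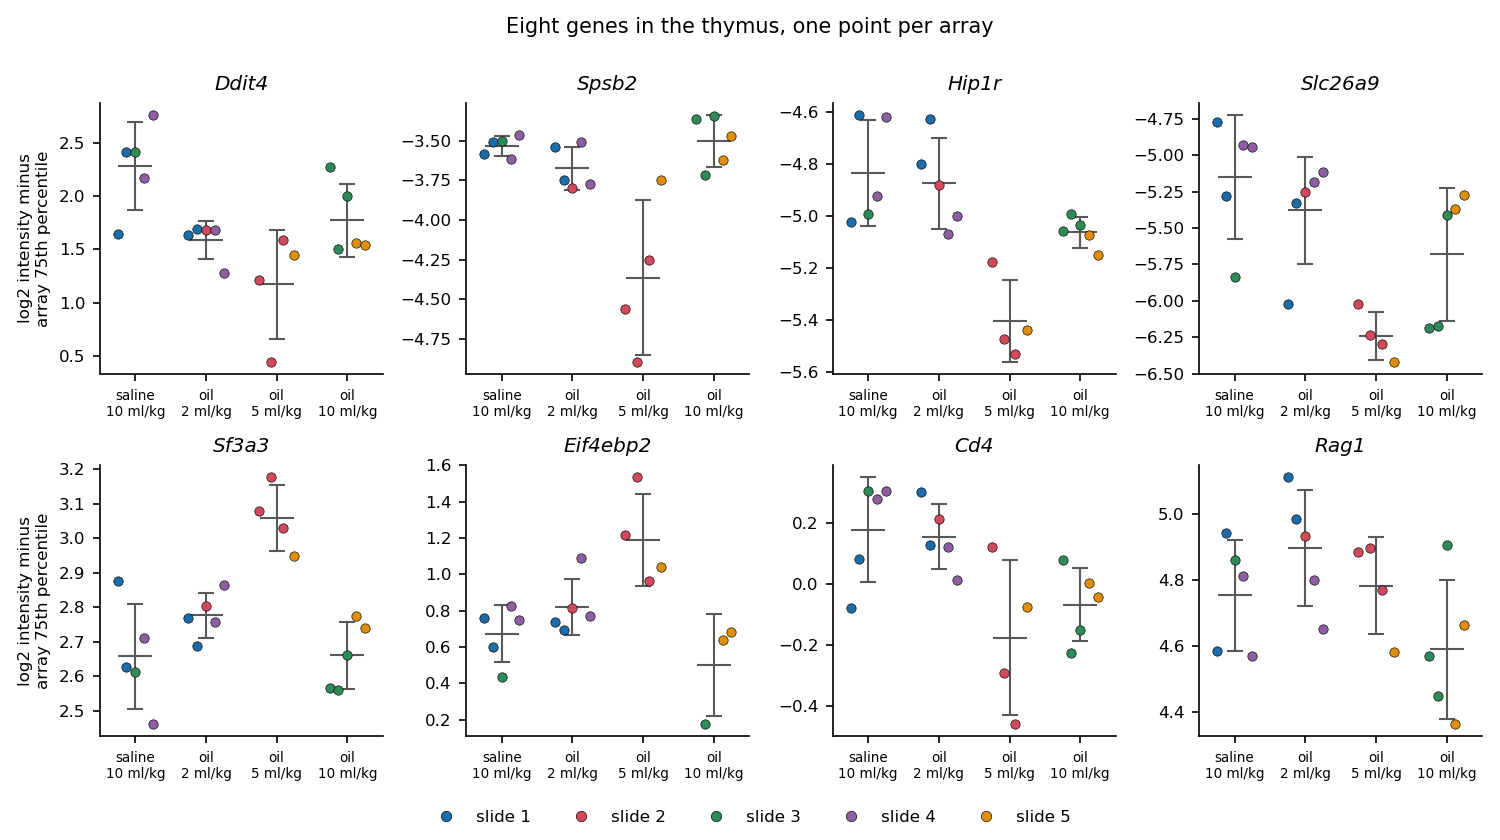
Levels of 8 genes in every array with a measured spot, by group and coloured by slide, with the group mean and SD in grey (log2 intensity relative to the 75th percentile of the array). At 5 ml/kg, Ddit4, Spsb2, Hip1r and Slc26a9 lie below all saline arrays and Sf3a3 and Eif4ebp2 above them, while Cd4 and Rag1 overlap.

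Most thymocyte genes had small differences in the fit without a slide term. Cd3d, Cd3e, Cd8b and Lck, which mark thymocytes, differed by 0.05 ± 0.14, 0.03 ± 0.10, -0.07 ± 0.12 and 0.07 ± 0.09 and were well above background on all 9 arrays, as the labelled tissue requires. Rag1, a subunit of the recombinase that assembles receptor genes, stood at 4.81, 4.57, 4.58, 4.94 and 4.86 with saline and at 4.88, 4.58, 4.90 and 4.77 with oil. The ranges overlapped almost fully, and the difference was 0.03 ± 0.12 (95% interval -0.23 to 0.29). Dntt, the terminal transferase that adds bases at the joins, differed by -0.21 ± 0.18 and Cd8a by -0.10 ± 0.09. With slide as a block Dntt stood at 0.04 and Cd8a at -0.29, and Cd8a was between -0.26 and -0.33 on the other routes. Of 16 tested genes of the immature thymocyte list, 0 were called and the median difference was -0.01, the same as the median of all genes tested (-0.01). The 20 receptor complex and signalling genes had 0 called and a median of 0.02, with no member at an unadjusted p of 0.05. On other routes the receptor list was lower, with a median of -0.13 and 2 of 20 members above 0 with the slide block, and -0.32 and 1 of 20 through 10 ml/kg, though -0.03 through 2 ml/kg and -0.02 within the day.

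Cd4, the coreceptor of helper T cells, had a larger difference than Rag1, Dntt or Cd8a. It stood at 0.28, 0.30, -0.08, 0.08 and 0.30 with saline and at 0.12, -0.08, -0.29 and -0.46 with oil. The groups overlapped, and the difference of -0.35 ± 0.12 had an adjusted p of 0.576 by limma. All routes had it lower, at -0.44 with the slide block, -0.43 and -0.46 through the chains and -0.37 within the day.

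Mature thymocyte and regulatory T cell genes leaned lower without a call. Of 21 tested, 16 were below 0, 3 were lower at an unadjusted p of 0.05 and the median was -0.15, against -0.33 with the slide block and -0.23 within the scan day, but -0.08 with quantile normalization and -0.02 with normexp. Among all genes tested, 11812 of 22667 were below 0 and 5.49% were lower at that p. Ccr7, the chemokine receptor that guides mature thymocytes to the medulla, stood at -2.11, -1.99, -2.03, -1.82 and -1.85 with saline and at -2.75, -2.36, -2.18 and -2.33 with oil. It did not overlap and differed by -0.45 ± 0.14, or by -0.88 with slide as a block. Il2ra, the high-affinity interleukin 2 receptor chain, also lay apart (-0.34 ± 0.15), and Cd69, a marker of recent receptor signalling, overlapped (-0.33 ± 0.12). Per array, the list medians relative to saline were -0.38, -0.17, -0.04 and -0.11 at 5 ml/kg, and saline replicate 3 at -0.21 lay within that range.

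Epithelial genes showed no call. Foxn1, the master regulator of thymic epithelium, stood at -5.07, -5.26, -4.13, -4.84 and -5.38 with saline and at -5.45, -5.51, -5.57 and -5.73 with oil. The groups were apart by a narrow margin, and the difference was -0.63 ± 0.28, or -0.05 with normexp background. The cortical protease gene Prss16 leaned the other way (0.39 ± 0.19, but -0.84 through 10 ml/kg), and Aire, which drives expression of tissue antigens in the medulla, was at -0.04 ± 0.23. List medians were 0.03 for 12 cortical genes and -0.07 for 16 medullary genes (-0.05 and -0.21 with the slide block). Psmb11 and Ptcra were among 8 markers not analysed here.

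Genes of natural killer and cytotoxic cells were the only one of 37 lists whose per-array median lay below all 5 saline arrays in all 4 oil arrays, and no list lay above. Among all genes tested, 1.41% lay below in this way and 1.05% above, so 1 list of 37 is no more than a value to report. The oil arrays were at -0.75, -0.28, -0.19 and -0.27 for replicates 1 to 4, and the saline arrays at -0.13, 0.25, -0.17, 0.02 and -0.13. The gap between the groups was small, since the highest oil array was at -0.19 and the lowest saline array at -0.17. All 16 tested members were below 0, 3 were lower at an unadjusted p of 0.05, 0 were called and the median difference was -0.36. It was -0.26 with the slide block, -0.38 and -0.25 through the chains, -0.38 within the day and -0.24 without saline replicate 2. Among all genes tested, 11812 of 22667 were below 0 and 5.49% were lower at an unadjusted p of 0.05 by limma. Gzmb and Gzma, the granzymes that cytotoxic cells release, differed by -0.41 ± 0.17 and -0.89 ± 0.42, and Klrk1, the activating receptor NKG2D, by -0.51 ± 0.24. Second probes for Gzmb and Klrk1 gave -0.10 and -0.13, and the chain through 10 ml/kg turned both signs (0.01 and 0.53). The median was -0.43 at 10 ml/kg and -0.11 at 2 ml/kg, against the same saline arrays.

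Cytokine genes leaned the same way. Of 27 tested, 22 were below 0, 6 were lower at an unadjusted p of 0.05 (5.49% of all genes were) and the median was -0.15 (-0.28 with the slide block and -0.29 within the day, but -0.05 without 5 ml/kg replicate 1). Lta and Ltb encode lymphotoxins, which pattern lymphoid stroma and the thymic medulla. Lta stood at -2.53, -1.46, -2.52, -2.37 and -2.68 with saline and at -3.47, -3.14, -2.80 and -2.87 with oil, without overlap, and differed by -0.76 ± 0.20. Ltb stood at 2.39, 2.83, 1.69, 2.46 and 2.67 with saline and at 1.77, 2.06, 1.71 and 1.98 with oil. It overlapped through saline replicate 3 alone and differed by -0.53 ± 0.17, with the other routes between -0.46 and -0.64. Tnfsf11, the gene for RANKL, which matures medullary epithelium, differed by -0.63 ± 0.21, and Il10, an anti-inflammatory cytokine, by -1.13 ± 0.41. Under normexp background these 2 genes stood at 0.04 and -0.03, and the list median at -0.03.

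Antigen presentation genes of class II leaned lower without a call. MHC class II genes had a median of -0.15 with 8 of 9 below 0 and 0 called. The median was -0.34 with the slide block, -0.28 and -0.33 through the chains and -0.27 within the day, with 0 of 9 members above 0 on each of these routes, and -0.08 without saline replicate 2. The class I and peptide loading genes had a median of -0.14 with 11 of 15 below 0, but -0.05 with the slide block and 0.02 within the day. RT1-M3-1, a nonclassical class I gene, lay apart from saline by -0.28 ± 0.08. For RT1-Bb, the probe in use gave -0.18 and a second probe -1.65. Of 30 interferon response genes none passed an unadjusted p of 0.05, and the median was -0.01, against -0.17 with the slide block and -0.42 through 10 ml/kg. Macrophage and dendritic cell genes had a median of -0.10, mast cell genes 0.00 and granulocyte genes 0.08. Without saline replicate 2 the macrophage median was 0.08 and the granulocyte median -0.12, and the granulocyte median was also below 0 with the slide block (-0.24) and through 10 ml/kg (-0.61). At 10 ml/kg the granulocyte median was 1.16 with all 19 tested members above 0.

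B cell genes show how far 1 animal can move a list. The median difference was -0.39 with 13 of 14 members below 0, and it was -0.07 without saline replicate 2. That array stood at 1.56 for the list while the other saline arrays stood at -0.44 to -0.29 and the oil arrays at -0.50 to -0.31. The same array was high for adipocyte, endothelial and macrophage genes. What that animal's sample contained was not tested.

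**Figure D4:**
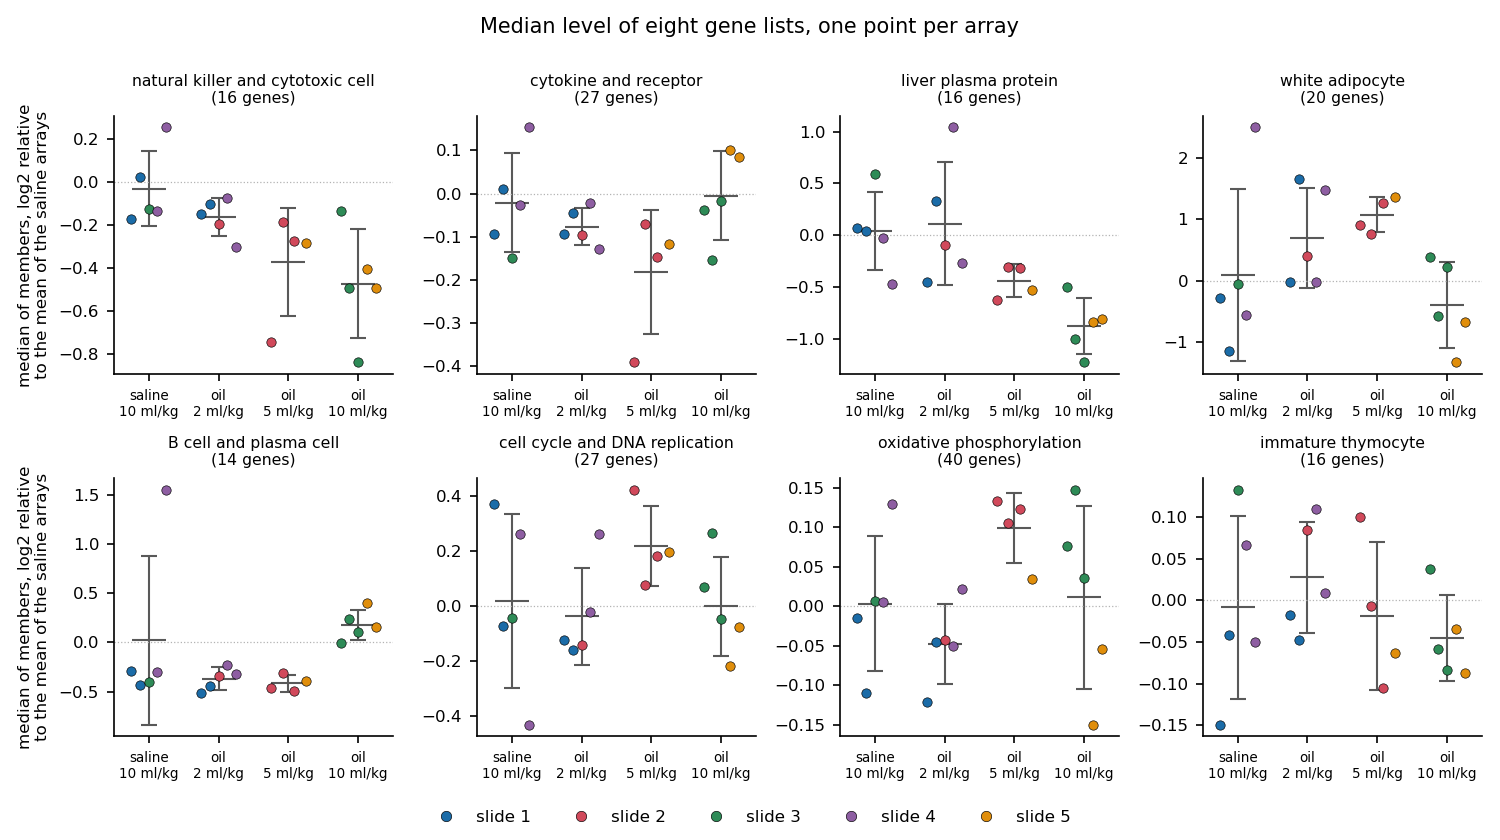
Median over the tested members of 8 gene lists in every array, relative to the mean of the saline arrays (log2), with the group mean and SD in grey and colour for the slide. The natural killer and cytotoxic list lies lower in all oil arrays at 5 ml/kg, and 1 saline array on slide 4, replicate 2, is far above the others for the adipocyte and B cell lists.

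Fat cell genes had the largest list medians. Of 20 white adipocyte genes tested, 19 were above 0, 6 were higher at an unadjusted p of 0.05 (2.79% of all genes were), 0 were called and the median was 1.09. The 4 oil arrays stood close together at 0.90, 1.36, 0.76 and 1.27, whereas the saline arrays ranged over -0.56, 2.50, -0.28, -1.14 and -0.06. Only saline replicate 2 reached above the oil arrays, and without it the median difference was 1.64. The slide block gave 1.49, the chains 1.06 and 2.23 and the shared scan day, which includes that replicate, 0.43. Adipoq, the gene for adiponectin, stood at -2.05, 1.92, -1.07, -3.85 and -0.89 with saline and at 0.75, 1.39, 1.08 and 1.05 with oil. The saline values spread over more than 5 log2 units, and the difference was 2.26 ± 0.93 (95% interval 0.29 to 4.22). Fabp4, a fatty acid carrier, differed by 1.70 ± 0.70, Car3, a carbonic anhydrase of fat, by 2.51 ± 1.09, Aoc3, an amine oxidase of adipocytes, by 1.21 ± 0.50 and Cidec, a lipid droplet protein, by 2.24 ± 1.03, while Lep, the gene for leptin, was at 0.00 ± 0.89. Arrays at 2 ml/kg spread as widely, from -0.03 to 1.66 for the list, and the median difference was 0.62 at 2 ml/kg and -0.51 at 10 ml/kg.

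Brown fat genes followed that spread. Ucp1, the uncoupling protein of brown fat, stood at -3.14, 4.30, -4.99, -6.82 and -1.12 with saline and at 1.94, 2.70, -0.51 and 2.94 with oil. The saline arrays thus differed from each other by more than 11 log2 units, and the difference of 4.12 ± 2.09 had an adjusted p of 0.576 by limma. Cidea, a lipid droplet protein of brown fat, differed by 3.07 ± 1.30 (2.85 with a second probe), and the median of the 10 genes was 0.79, with 1.43 without saline replicate 2, 1.47 with the slide block and 0.28 within the shared scan day, where 6 of 10 were above 0.

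Genes of lipid metabolism stand beside those fat markers. Scd, the desaturase that makes oleic acid, stood at 0.18, 3.29, 0.64, -1.85 and 1.18 with saline and at 2.51, 2.68, 2.75 and 1.94 with oil, a difference of 1.78 ± 0.94 with overlap through saline replicate 2. Thrsp, a regulator of lipogenesis, differed by 2.23 ± 1.21, Cebpb, a transcription factor of fat cells and of the acute phase, by 0.71 ± 0.28 and Cesl1, a carboxylesterase, by 2.15 ± 0.59. In all 4, saline replicate 2 was the highest saline array, as it was for the adipocyte list, and the part of fat tissue in these differences was not tested. The 18 fatty acid synthesis genes had a median of 0.24, with 13 above 0. It was 0.82 with the slide block, 0.93 and 0.29 through the chains and 0.09 within the day, and 0.07 without saline replicate 4. Targets of PPAR, a receptor for fatty acids, gave little: Cpt1a, the gate of mitochondrial fatty acid import, was at 0.04 ± 0.14 and Pdk4 at 0.88 ± 0.69, with saline replicate 2 again highest. The median of 29 fatty acid oxidation genes was 0.09, and 0.29 without that replicate, with 0.18 in the slide-blocked fit and -0.05 within the day. At 10 ml/kg Cpt1a differed from saline by 0.71 (adjusted p 0.00281 by limma).

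Cholesterol genes had a median of 0.02 over 31 genes. Hsd17b7, an enzyme of the postsqualene steps, lay apart at 0.58 ± 0.18 (0.73 with the slide block). Idi1 and Lss, which act before and after squalene, differed by 0.36 ± 0.16 and 0.39 ± 0.15. Lss was at -0.02 when chained through 10 ml/kg.

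Glucocorticoid response genes, which rise when stress shrinks the thymus, did not shift in 1 direction. At an unadjusted p of 0.05 by limma, 3 of 22 genes were higher and 1 lower (2.79% and 5.49% among all genes). The median was -0.10, but -0.02 with the slide block and -0.22 and -0.08 through the chains. It was 0.01 within the day, 0.07 with normexp and 0.04 without saline replicate 2. Fkbp5, a co-chaperone induced by the receptor, stood at 1.57, 1.26, 1.80, 1.59 and 1.83 with saline and at 2.14, 1.87, 1.87 and 1.85 with oil. It lay apart by a narrow margin (0.32 ± 0.12), and it was at -0.16 when chained through 10 ml/kg. Tsc22d3, the gene for GILZ, leaned the other way at -0.33 ± 0.18, as did Ddit4. Immediate early, circadian, p53 and apoptosis, and heat shock genes had medians of -0.01, -0.07, 0.03 and 0.09, with 0 called in each. The immediate early and the p53 and apoptosis medians were -0.17 and -0.18 with the slide block. The unfolded protein and amino acid response list was at 0.05, with the serine synthesis genes Psat1 and Phgdh at 0.50 ± 0.18 and 0.33 ± 0.15 (Psat1 at -0.04 through the 10 ml/kg chain). Antioxidant and xenobiotic genes were at 0.02, ribosomal protein genes at 0.04 (0.22 and -0.22 through the chains) and proteasome genes at 0.05.

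Cell cycle genes were all above 0. Each of 27 tested members had a higher mean at 5 ml/kg, 4 of them at an unadjusted p of 0.05 and 0 called (among all genes, 10855 of 22667 were above 0 and 2.79% were higher at that p), and the median difference was 0.19. It was 0.37 with the slide block, 0.32 and 0.51 through the chains and 0.33 within the day, but 0.08 without saline replicate 2. Per array the groups overlapped, with the oil arrays at 0.42, 0.19, 0.08 and 0.18 and the saline arrays at 0.26, -0.43, 0.37, -0.07 and -0.04. Ccna2, the cyclin of S phase and mitotic entry, stood at 2.96, 2.30, 3.12, 2.56 and 2.48 with saline and at 3.33, 3.06, 2.97 and 3.08 with oil, a difference of 0.42 ± 0.16 (0.27 with a second probe). Ccne2, a cyclin of S phase entry, differed by 0.61 ± 0.20, Aurka, a mitotic kinase, by 0.33 ± 0.15, and Mcm4, a subunit of the replicative helicase, by 0.36 ± 0.17. These genes are transcribed together in dividing cells, so the members are not independent. The list medians at 2 and 10 ml/kg were -0.02 and 0.00.

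Oxidative phosphorylation genes leaned higher by little. Of 40 tested, 5 were higher at an unadjusted p of 0.05 by limma (2.79% among all genes). Above 0 were 35 (47.9% among all genes), and the median was 0.09. It was 0.16 with the slide block and -0.02 within the scan day, and 0.06 without saline replicate 4. Cox5a, a subunit of cytochrome c oxidase, lay apart at 0.53 ± 0.19.

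Transcripts of plasma proteins made mainly by the liver leaned lower at 5 ml/kg, and the list median was -0.94 at 10 ml/kg against the same saline arrays. Of 16 tested, 5 were lower and 1 higher at an unadjusted p of 0.05 (5.49% and 2.79% among all genes), 0 were called and the median was -0.32. Serpina1, the gene for alpha-1-antitrypsin, stood at -5.08, -5.62, -4.31, -4.12 and -4.76 with saline and at -6.66, -6.12, -6.17 and -6.17 with oil, a difference of -1.50 ± 0.41 with no overlap. Its difference from saline was -1.67 at 10 ml/kg (adjusted p 0.0157 by limma) and -0.20 at 2 ml/kg. Ttr, the gene for transthyretin, stood at -3.88, -5.97, -5.24, -3.93 and -1.90 with saline and at -7.93, -6.08, -6.82 and -6.46 with oil, a difference of -2.64 ± 1.05. The groups did not overlap, though saline replicate 2 and oil replicate 2 were close. Apoh was not well above background on any oil array and was so on 3 of 5 saline arrays, at means of -9.38 and -7.10. Against the lowest signal well above background on each oil array, the saline mean was 1.91-fold higher. That saline mean includes arrays where the gene was not well above background, so the value is not a strict lower bound. With normexp background the sign of the difference turned (0.15). Alb, the gene for albumin, was at 0.07 ± 0.71, so its members did not all lie lower. The slide-blocked median was -0.60 and the chains gave -0.11 and -1.18, while normexp background turned it to 0.10.

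Markers of neighbouring tissue had small medians in the fit without a slide term. Striated muscle, endothelial and mural, and fibroblast and matrix genes had medians of -0.02, -0.09 and 0.09. Within the scan day these were -0.35, -0.46 and -0.14, and without saline replicate 2 the last 2 were 0.12 and 0.31. Acta1, Ckm and Tnnt3 differed by 0.40 ± 0.36, -0.50 ± 0.58 and 0.05 ± 0.18. Parathyroid and thyroid genes were at -0.15. Erythroid genes were at 0.22 (0.98 through 10 ml/kg), with the globin gene Hbb at 0.94 ± 0.42, or 0.36 with the slide block. Chemokine and receptor genes leaned lower, with 27 of 36 below 0 and a median of -0.10. It was -0.33 with the slide block (3 of 36 above 0), -0.33 and -0.29 through the chains and -0.24 within the day, but -0.04 with normexp and -0.02 without saline replicate 2.

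**Figure D5:**
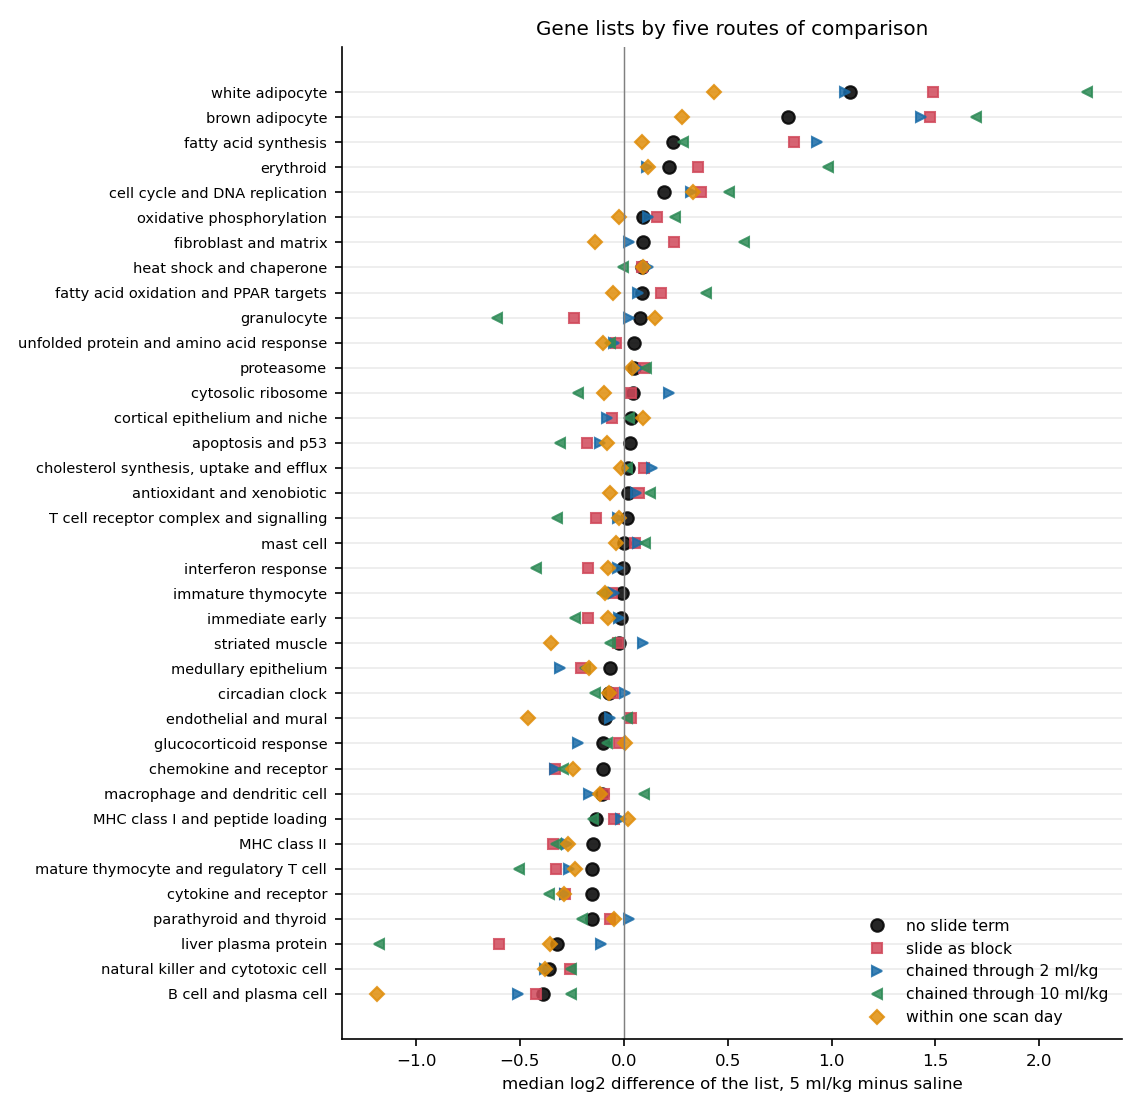
Median log2 difference of 37 gene lists between 5 ml/kg and saline, sorted by the value without a slide term (black) and set beside 4 routes that hold slide or scan day fixed. The adipocyte and cell cycle lists stand above 0 and the natural killer, cytokine and B cell lists below 0 on all 5 routes, while the granulocyte list changes side.

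Most of the genes named for a change of many fold at 10 ml/kg stood near saline at 5 ml/kg. Vegfb, the gene for a vascular growth factor, stood at -1.84, -0.83, -1.78, -1.90 and -1.70 with saline and at -1.43, -1.42, -1.54 and -1.34 with 5 ml/kg. The difference was 0.18 ± 0.19 (95% interval -0.22 to 0.58), against -8.25 at 10 ml/kg, and the 10 ml/kg arrays differed from the 5 ml/kg arrays by -8.43 (adjusted p 2.33e-14 by limma). Mei1, a meiotic gene, was at 0.04 ± 0.24 at 5 ml/kg and 5.47 at 10 ml/kg. Bad, a proapoptotic member of the BCL2 family, was at -0.33 ± 0.19 and 4.95. Lcn2, the gene for neutrophil lipocalin, was at -0.33 ± 0.22 and 4.80. Gdf3, a growth factor of the TGF-beta family, was at -0.08 ± 0.23 and -4.79. For these 4 genes the 10 minus 5 ml/kg differences were 5.43, 5.28, 5.13 and -4.71, each past the adjusted threshold. Itln1 (0.17 ± 0.33, with saline replicate 5 missing), Kcnd2 (0.21 ± 0.86) and Cd300lg (0.18 ± 0.40) also stood near saline at 5 ml/kg and at -4.42, -4.52 and -4.22 at 10 ml/kg. Itln1 encodes a lectin, Kcnd2 a potassium channel and Cd300lg a receptor of capillary endothelium. The error of Kcnd2 pools the spread of all groups, whose SD was 2.58 at 10 ml/kg and 0.25 at 5 ml/kg (n = 5 and 4). Hba-a3, an alpha-globin gene well above background on 2 of 4 oil and 1 of 5 saline arrays, was at 0.61 ± 0.68 at 5 ml/kg and 4.28 at 10 ml/kg, but 2.68 at 5 ml/kg with slide as a block, where the saline array and the 2 ml/kg array that link the slides were low at -10.74 and -10.47.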

How the data were processed

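The deposited files hold spot intensity values of Agilent 1-colour rat arrays, 1 array per sample. Per the file headers, the authors' scans were quantified with Feature Extraction 10.7.3.1, which had subtracted background and detrended within each array, on a design annotated to build rn4. The deposited value table, intensity scaled per array by an unstated rule, served as an alternative. The 75th percentile of the processed signal was 1852 to 2954 and 69.7 to 88.4% of spots were well above background. The number of arrays limits the precision.

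Each log2 intensity was set relative to the 75th percentile of its array. Control spots were removed, spots called non-uniform or outlying were treated as missing, and spots of a probe were averaged. Probes were kept if well above background on at least 4 arrays with at least 2 values per group. RefSeq accessions named 17320 of 30367 probes, and the probe with the highest mean stood for its gene. A fit with limma 3.58.1 in R 4.3.3 used all 19 arrays (15 residual degrees of freedom), Benjamini-Hochberg adjustment and a threshold of 0.05. It was also run on simulated data with independent arrays and no slide effect. That run therefore did not test the fit where slide and group are confounded. Normexp used an offset of 50 and the median spot signal, as no mean signal was at hand. The filter left 1253 missing values in 821 genes, which the fit skipped.

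Named genes were the 12 of each direction with the smallest p, 13 fixed genes, up to 4 per list with the smallest p, cell type markers and genes changed at 10 ml/kg; some of these are not reported here. The groups, lists and genes were chosen with earlier results of these data known. A list's value in an array is the median over members of the level minus the member's saline mean. Replicate numbers were not used to pair the arrays. The deviations of same-numbered saline and 5 ml/kg arrays correlated at 0.0645, -0.0187, -0.0574 and -0.0800. No slide holds both groups, so these correlations cannot settle whether the numbers pair the arrays. Alternatives were the background, normalization, probe filter, spot flags, slide or scan day as a block, array weights, the 9 arrays alone, the value table and each array left out.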

Additional observations from a re-analysis of the deposited data

Results flagged for a closer look

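An array was singled out where its gap to the nearest array of its group passed Dixon's 95% limit, which chance passes in about 1 in 20 groups. Of 254 groups of values from 90 genes and 37 lists, 26 had such an array. Saline replicate 2 was high for Cesl1 (-3.57, others -6.90 to -6.46), Pdk4 (-4.14), Fabp4 (2.81), Vegfb (-0.83), Cd300lg (-0.50), Lta (-1.46) and Tnfsf11 (-3.83). It was also high for the B cell and plasma cell list (1.56), the brown adipocyte list (2.65), the fatty acid oxidation and PPAR target list (0.47), the endothelial and mural list (0.85) and the macrophage and dendritic cell list (0.24).

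Saline replicate 3 was high for Sv2a (-3.28) and low for Cd8b (2.32) and for the mature thymocyte and regulatory T cell list (-0.21). Saline replicate 4 was low for Hsd17b7 (-5.03). Saline replicate 5 was low for Rhcg (-6.97), Hba-a3 (-10.74) and the striated muscle list (-0.30).

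At 5 ml/kg, replicate 1 was high for Fkbp5 (2.14) and Idi1 (1.54) and low for Il2ra (-4.15), Serpina1 (-6.66) and Car3 (-0.88). Replicate 2, the one on slide 5, was high for Sv2a (-3.60, others -3.97 to -3.93) and low for the unfolded protein and amino acid response list (-0.0699).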

How the results depend on the processing

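No gene was called by limma under any alternative except without 5 ml/kg replicate 2, where Spsb2 was, so leaving out 1 array gave 0 to 1 calls. The 1878 genes at an unadjusted p of 0.05 became 699 with normexp background, 1229 with slide and 1154 with scan day as a fixed block, 873 with slide as a random block and 5056 with array weights. Leaving out 1 array gave 1009 (without 5 ml/kg replicate 3) to 3839 (without saline replicate 5), with 1054 without 5 ml/kg replicate 1 and 1134 without saline replicate 4. With the replicate number as a block, 0 genes were called and 2398 passed unadjusted. The labels do not say that the numbers pair these arrays. An alternative added after seeing the data, every probe on its own with no filter, gave 0 calls and 2464 of 30365 probes unadjusted. Signs turned under normexp for Fitm1 (0.0604), Rhcg (0.23), Apoh (0.152) and Tnfsf11 (0.0437), and in the chain through 10 ml/kg for Star (-0.17), Rhcg (0.27), Fkbp5 (-0.16), Gzmb (0.00790), Klrk1 (0.53), Lss (-0.0153) and Psat1 (-0.0402); the cause was not tested. Of 888 alternative list medians, 74 moved by more than the spread between arrays, 20 of them in the chain through 10 ml/kg and 12 with the slide block. Dim probes limit the precision: the median SE was 0.446 for genes not well above background on all 9 arrays and 0.151 for the others.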
